A study of Homo sapiens with 18 samples.

Results

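The matrix metalloproteinases (MMPs) and their inhibitors were followed here through 10 genes: the secreted gelatinases MMP2 and MMP9, the matrilysin MMP7, the membrane-type enzymes MMP14, MMP15 and MMP16, the tissue inhibitors TIMP1, TIMP2 and TIMP3, and PLAU, which encodes urokinase. They were taken by gene symbol from the deposited count table, which lists 28277 genes, and 7 of the 10 passed the filter on low counts, as did 14938 genes in all. MMP2, MMP7 and PLAU did not pass. The cells were labelled OVCAR3, an established ovarian cancer line, and every group carried dCas9-KRAB, a dead Cas9 joined to the KRAB repressor, which silences the promoter that a guide RNA leads it to. The groups differed in guide, sgCtl (a control guide) or sgXIST7 or sgXIST9 (guides to separate stretches of the promoter of XIST, the long noncoding RNA that silences one X chromosome in female cells), and in oxygen, normoxia or 24 h in a chamber with 1% oxygen. With 3 replicates for each of the 6 groups, 18 RNA-seq libraries were compared. The cells of each guide had gone through clonal selection, so that an effect of XIST knockdown (KD) and a difference between clones cannot be told apart, and where replicates come from the same culture the p-values measure technical spread only.

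MMPs are zinc-dependent proteases that cut collagens, other matrix proteins and growth factor precursors outside the cell. They are made as inactive proenzymes. The membrane-type enzyme MMP14 activates pro-MMP2 at the cell surface in a complex that needs TIMP2. Urokinase turns plasminogen into plasmin, which can activate several MMPs. TIMPs can bind the active site of MMPs and block it, TIMP1 and TIMP2 as soluble proteins and TIMP3 bound to the matrix. Net proteolysis thus depends in part on the ratio of enzymes to inhibitors. In ovarian carcinoma these genes are known for their part in invasion of the peritoneal surface, and in a tumor much of the MMP2 comes from stromal cells, which a pure cell line lacks.

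The targeted gene was lower in each KD group than in sgCtl. XIST averaged 479 CPM (counts scaled by library size and TMM factor) in sgCtl, 0.161 in sgXIST7 and 45.0 in sgXIST9 in normoxia, and 171, 0.117 and 23.3 in hypoxia. The summed level of 8 genes known to rise in hypoxia was 526 to 862 CPM over the normoxia libraries and 2108 to 3759 CPM over the hypoxia libraries. Total counts ranged from 11794375 to 24906936 per library. Of the epithelial markers of the label, EPCAM, KRT8, KRT18 and PAX8 were detected in every group, while KRT7 and CDH1 did not exceed 3 counts in any library and MUC16, which encodes CA-125, exceeded them in sgXIST9 hypoxia only. The absence of these markers leaves the identity of the line in some doubt, and it was not tested further. WT1 was not detected in sgXIST7 and sgXIST9 in normoxia, and MSLN was not detected in sgCtl in normoxia. The 9 epithelial markers summed to 352 to 387 CPM in sgCtl, 345 to 407 in sgXIST7 and 436 to 451 in sgXIST9 in normoxia. In hypoxia the sums were 297 to 348, 460 to 518 and 410 to 433 CPM in the same order. The 5 immune markers summed to 11.1 to 55.9 CPM per library, nearly all of it CD68, a lysosomal protein gene, at group means of 16.1 to 46.3 CPM, while CD14 had at most 6 counts and PTPRC, CD3E and MS4A1 did not exceed 3 counts in any library. The 4 endothelial markers summed to at most 0.683 CPM. Of 8 fibroblast or mesenchymal markers, 4 to 6 were detected per group, with sums of 940 to 986 CPM in sgCtl, 1128 to 1203 in sgXIST7 and 653 to 716 in sgXIST9 in normoxia, and of 747 to 1031, 885 to 1297 and 443 to 705 in hypoxia. COL1A2 within that list averaged 0.275 and 0.213 CPM in sgCtl against 45.4 to 189 CPM in the KD groups, and its part in the results below was not tested. DCN and LUM of the same list were detected in sgCtl at each oxygen level. Among the KD groups, LUM was detected in none and DCN in sgXIST9 hypoxia only. The hypoxia libraries of replicate 3 stood apart from the other hypoxia libraries in all 3 guides, so called results that rest on them were also computed without them.

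TIMP1 and TIMP3 are shown first by sequence, because these inhibitors changed with oxygen in the data and their promoters differ in composition. The windows below hold the 250 bases before the start that RefSeq annotates (GRCh38.p14), with an entry for 6 of the 10 members. MMP2, MMP9, MMP16 and TIMP2 had none. The gene model behind the deposited counts starts TIMP3 further upstream, so that the TIMP3 window lies within its first exon block. Capitals mark ACGTG and GCGTG, the cores of the hypoxia response element, and GGGCGG, the GC box, or their reverse complements.
TIMP1 chrX:47582186-47582435 (+): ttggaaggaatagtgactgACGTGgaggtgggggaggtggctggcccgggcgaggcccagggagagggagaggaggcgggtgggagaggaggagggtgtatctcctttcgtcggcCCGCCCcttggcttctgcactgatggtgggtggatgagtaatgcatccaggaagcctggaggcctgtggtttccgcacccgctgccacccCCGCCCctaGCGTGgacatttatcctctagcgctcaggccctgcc
TIMP3 chr22:32801455-32801704 (+): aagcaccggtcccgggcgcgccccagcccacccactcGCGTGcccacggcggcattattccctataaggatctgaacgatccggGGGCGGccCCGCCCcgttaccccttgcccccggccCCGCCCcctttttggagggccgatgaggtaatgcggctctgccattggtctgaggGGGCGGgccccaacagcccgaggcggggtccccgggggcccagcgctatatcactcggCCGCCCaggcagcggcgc

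GC content was 64.8% in the TIMP1 window and 72.4% in the TIMP3 window, against a median of 58% over the 35116 promoters of the table. Counting the first base of the motif from the start, TIMP1 held ACGTG at -231, GCGTG at -36 and GGGCGG at -135 and -45. TIMP3 held GCGTG at -213 and GGGCGG at -166, -158, -131, -76 and -18, and no ACGTG. Both strands were searched, no 2 of these matches shared a base, and neither window held an exact TGANTCA (the AP-1 consensus) or TATAAA. Sites that depart from these letters were not searched for. Over all promoters of this length, 18.5% held ACGTG, 32.2% GCGTG, 42.6% GGGCGG, 6.57% TGANTCA and 10.7% TATAAA, so that none of the 3 motifs marked in capitals is rare. Among the other members with an entry, MMP14 held ACGTG at -96 and entry 2 of PLAU held GCGTG at -113, while MMP7 and MMP15 held neither. A match of letters is a description and not a bound site. TIMP1 and TIMP3 were picked from these same data, and a link of their sequences to the changes was not tested.

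TIMP1 made up nearly all of the transcript signal of the 10 genes. Divided by exon length, which allows genes to be compared, TIMP1 took from 97.9% to 99.6% of the summed CPM per kb of the 10 members, depending on the library. Its mean level was 543 CPM per kb in sgCtl normoxia and 4066 CPM per kb in sgXIST7 hypoxia, which ranked 85 and 11 among the 14938 genes tested. TIMP2 came next in every group, at 4.92 to 25.2 CPM per kb. MMP15 was the enzyme with the highest level in every group, at 1.58 to 3.77 CPM per kb, and the other enzymes stayed under 1 CPM per kb. Inhibitor transcripts thus outnumbered enzyme transcripts in each group, and the order TIMP1, TIMP2, MMP15 was the same in all 6. Which enzymes these inhibitors block was not tested, so the levels do not give net proteolysis.

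**Figure D1:**
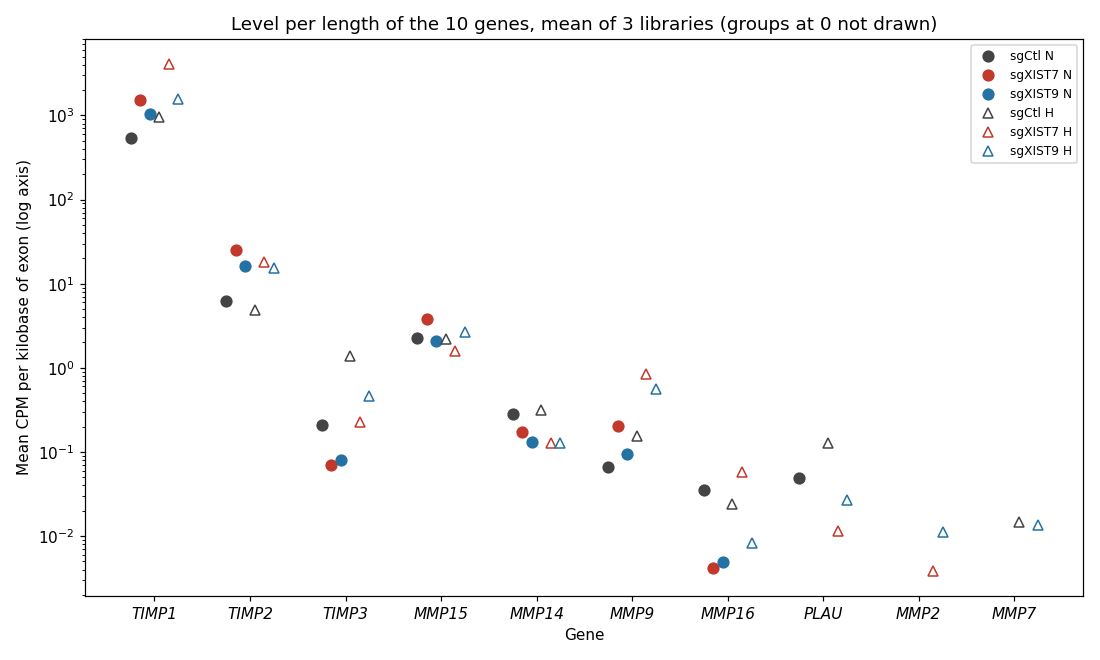
Mean level of each of the 10 genes in CPM per kb of exon (log axis) in the 6 groups, 3 libraries each, with groups at 0 not drawn (N normoxia, H hypoxia). TIMP1 lies far above the rest, at 543 to 4066 CPM per kb, TIMP2 follows at 4.92 to 25.2, and MMP15 is the highest enzyme at 1.58 to 3.77.

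TIMP1, a soluble inhibitor, lies on the X chromosome (hg38, chrX:47582436-47586789, 6 exon blocks) inside an intron of SYN1 on the opposite strand, with no shared exon bases. In normoxia its values in replicates 1, 2 and 3 were 419, 386 and 448 CPM in sgCtl, 1004, 1167 and 1359 CPM in sgXIST7 and 694, 910 and 793 CPM in sgXIST9. Hypoxia gave 767, 835 and 630 CPM in sgCtl, 2721, 3502 and 3157 CPM in sgXIST7 and 1142, 1225 and 1210 CPM in sgXIST9. At each oxygen level the 3 groups did not overlap, with sgCtl lowest and sgXIST7 highest, and within each guide every hypoxia library was above every normoxia library. A gene was called when its adjusted p was under 0.01 (edgeR quasi-likelihood test, Benjamini-Hochberg over all genes tested) and its log2 fold change was beyond 1 in either direction.

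By this rule TIMP1 was up-regulated in sgXIST7 against sgCtl, 2.82-fold in normoxia (log2 1.50 ± 0.14 SE, adjusted p = 5.92e-07) and 4.20-fold in hypoxia (log2 2.07 ± 0.14, adjusted p = 1.24e-08). In sgXIST9 it passed the p threshold but not the fold limit, at 1.91-fold in normoxia (adjusted p = 7.72e-05) and 1.60-fold in hypoxia (adjusted p = 0.00119). Without the replicate 1 library of sgXIST9 in normoxia that log2 difference was 1.03 and TIMP1 was called there too. The difference between the KD clones was itself called in hypoxia, where sgXIST7 was 2.62-fold above sgXIST9 (log2 1.39 ± 0.14, adjusted p = 2.57e-06), and was log2 1.40 without the replicate 3 hypoxia libraries, again called. In normoxia the same difference was 1.47-fold (log2 0.56 ± 0.14, adjusted p = 0.0142). Hypoxia raised TIMP1 2.66-fold in sgXIST7 (log2 1.41 ± 0.14, adjusted p = 2.37e-07), and the change was 1.78-fold in sgCtl (adjusted p = 9.65e-05) and 1.49-fold in sgXIST9 (adjusted p = 0.00188), both under the fold limit. The response to hypoxia in sgXIST7 less that in sgCtl was 0.58 ± 0.19 on the log2 scale, which did not pass (adjusted p = 0.0697). Without the replicate 3 hypoxia libraries, TIMP1 in sgXIST7 against sgCtl in hypoxia stood at log2 1.96 and its response to hypoxia in sgXIST7 at 1.42, both called.

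Since XIST silences X-linked genes, the background for TIMP1 is the X chromosome. Of 499 X-linked genes tested, 11 (2.20%) were called higher and 18 (3.61%) lower in sgXIST7 in normoxia, where 4.67% of all genes were called higher and 3.09% lower. In sgXIST9 in normoxia 12 (2.40%) were higher and 19 (3.81%) lower, against 3.93% and 3.77% of all genes. In hypoxia 37 (7.41%) were higher and 33 (6.61%) lower in sgXIST7, against 7.83% and 6.18% of all genes. For sgXIST9 in hypoxia 23 (4.61%) were higher and 17 (3.41%) lower, against 6.14% and 3.39%.

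**Figure D2:**
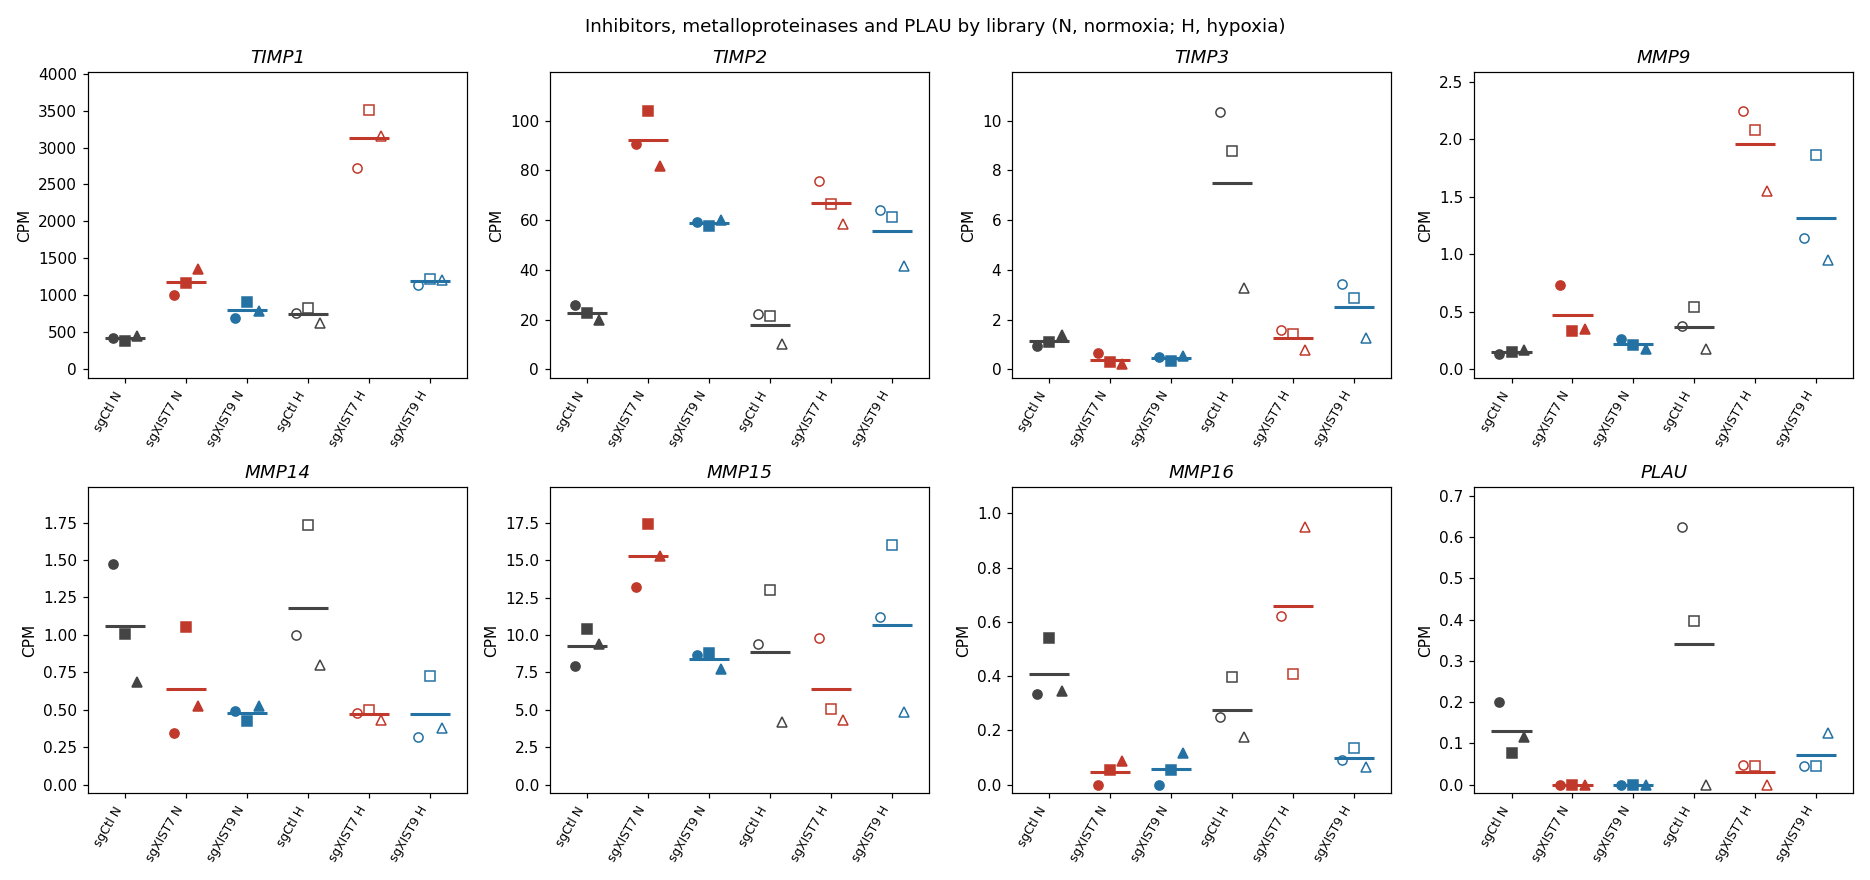
CPM (linear axis from 0) in each of the 18 libraries for TIMP1, TIMP2, TIMP3, MMP9, MMP14, MMP15, MMP16 and PLAU, by guide and oxygen (N normoxia, H hypoxia, open symbols for hypoxia); circles, squares and triangles are replicates 1, 2 and 3 and bars are group means. TIMP1 and TIMP2 lie higher in both KD guides than in sgCtl at each oxygen level, while TIMP3 is highest in sgCtl hypoxia, where its mean is 7.48 CPM.

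TIMP2, the inhibitor that also takes part in activation of pro-MMP2, was higher in both KD guides than in sgCtl at each oxygen level, and no response to hypoxia was called. It lies at chr17:78852977-78925387 on the minus strand, has 5 exon blocks and overlaps CEP295NL on the same strand without a shared exon base. Normoxia libraries held 25.7, 22.5 and 19.9 CPM in sgCtl, 90.7, 104 and 81.6 in sgXIST7 and 59.1, 57.7 and 59.9 in sgXIST9. Hypoxia libraries held 22.2, 21.6 and 10.0 CPM in sgCtl, 75.9, 66.3 and 58.3 in sgXIST7 and 63.9, 61.2 and 41.7 in sgXIST9. No library of a KD guide reached down to a library of sgCtl, and replicate 3 was the lowest of each hypoxia group. TIMP2 was the only member called in all 4 comparisons of a KD guide with sgCtl. In sgXIST7 it was 4.06-fold higher in normoxia (log2 2.02 ± 0.23, adjusted p = 4.29e-06) and 3.69-fold higher in hypoxia (log2 1.88 ± 0.23, adjusted p = 7.19e-06). For sgXIST9 the differences were 2.60-fold (log2 1.38 ± 0.22, adjusted p = 0.000212) and 3.07-fold (log2 1.62 ± 0.23, adjusted p = 4.08e-05). Without the replicate 3 hypoxia libraries the hypoxia differences were log2 1.70 and 1.51, both called. When only the groups compared were fitted, the call in sgXIST9 in hypoxia was lost (adjusted p = 0.016). The response to hypoxia was log2 -0.32 in sgCtl, -0.46 in sgXIST7 and -0.08 in sgXIST9, and none passed (adjusted p = 0.25, 0.076 and 0.772).

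TIMP3, the matrix-bound inhibitor, moved the other way in the KD clones and rose in hypoxia in each guide. It lies at chr22:32800816-32863041 within SYN3, a gene on the opposite strand with no shared exon bases and 9 counts over all libraries. In normoxia it held 14, 14 and 24 counts in sgCtl (0.939, 1.08 and 1.38 CPM), 15, 5 and 5 in sgXIST7 (0.648, 0.278 and 0.218 CPM) and 11, 6 and 9 in sgXIST9 (0.491, 0.319 and 0.525 CPM). Hypoxia brought it to 166, 177 and 37 counts in sgCtl (10.4, 8.78 and 3.28 CPM), 33, 31 and 9 in sgXIST7 (1.58, 1.40 and 0.777 CPM) and 75, 63 and 20 in sgXIST9 (3.42, 2.86 and 1.26 CPM). Replicate 3 was the lowest library of every hypoxia group, and in sgCtl it lay under the highest sgXIST9 library.

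In sgCtl, TIMP3 rose 6.58-fold in hypoxia (log2 2.72 ± 0.46, adjusted p = 0.000107), and in sgXIST9 5.64-fold (log2 2.49 ± 0.50, adjusted p = 0.00045). For sgXIST7 the rise was 3.29-fold (log2 1.72 ± 0.52, adjusted p = 0.00937), a call that was lost without normoxia replicate 2 or 3 or without hypoxia replicate 1 or 2 of that guide (log2 1.42 to 1.65, adjusted p = 0.0287 to 0.0484). Without the replicate 3 hypoxia libraries these rises were log2 3.06, 2.81 and 1.94 in sgCtl, sgXIST9 and sgXIST7, all called. Against sgCtl in hypoxia, TIMP3 was 5.83-fold lower in sgXIST7 (log2 -2.54 ± 0.44, adjusted p = 0.000255; log2 -2.68 and called without the replicate 3 hypoxia libraries) and 2.96-fold lower in sgXIST9 (log2 -1.57 ± 0.42, adjusted p = 0.00886). The call in sgXIST9 was lost when any single library of either group except sgCtl replicate 3 was left out (log2 -1.27 to -1.85, adjusted p = 0.0122 to 0.0524) or when only the groups compared were fitted (adjusted p = 0.0882), whereas without all 3 replicate 3 hypoxia libraries it held (log2 -1.61, adjusted p = 0.000445). In normoxia the differences of log2 -1.54 in sgXIST7 and -1.34 in sgXIST9 did not pass (adjusted p = 0.0488 and 0.0858), and both passed without the replicate 3 hypoxia libraries, whose removal left the log2 values at -1.55 and -1.35 but lowered their SE from 0.54 and 0.53 to 0.36 and 0.35 (adjusted p = 0.00279 and 0.00736). The difference of the response in sgXIST7 from that in sgCtl lay between log2 -2.39 and 0.39 (95% interval, adjusted p = 0.38), and that of sgXIST9 was log2 -0.22 ± 0.72 (adjusted p = 0.892).

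Over the 18 libraries the log2 CPM of TIMP1 and TIMP2 had a Pearson r of 0.615, that of TIMP2 and TIMP3 of -0.570 and that of TIMP1 and TIMP3 of -0.0915, a description over libraries that share their guide and oxygen group. On the same measure the genes most like TIMP1 were TSPAN1 (0.956), PAPSS2 (0.954) and SIX4 (0.949), and those most like TIMP3 were NPTX1 (0.973), CLU (0.966) and KIZ (0.958).

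MMP9 was the only secreted enzyme of the 3 members (MMP2, MMP7 and MMP9) to enter the test. MMP9, gelatinase B, lies at chr20:46008908-46016561 and shares 428 exon bases with SLC12A5-AS1 on the opposite strand. In normoxia its counts were 2, 2 and 3 in sgCtl (0.134, 0.155 and 0.172 CPM), 17, 6 and 8 in sgXIST7 (0.735, 0.333 and 0.348 CPM) and 6, 4 and 3 in sgXIST9 (0.268, 0.212 and 0.175 CPM). In hypoxia they were 6, 11 and 2 in sgCtl (0.375, 0.546 and 0.177 CPM), 47, 46 and 18 in sgXIST7 (2.24, 2.08 and 1.55 CPM) and 25, 41 and 15 in sgXIST9 (1.14, 1.86 and 0.946 CPM). Every KD library in hypoxia was thus above every sgCtl library and above every normoxia library. MMP9 had passed the filter through 7 libraries, all of them sgXIST7 or hypoxic sgXIST9 cells, so that a gene kept in this way had to differ.

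Hypoxia raised MMP9 4.10-fold in sgXIST7 (log2 2.04 ± 0.37, adjusted p = 0.000165) and 5.84-fold in sgXIST9 (log2 2.55 ± 0.42, adjusted p = 8.26e-05). In sgCtl, with 7 counts in normoxia and 19 in hypoxia, the CPM ratio was 2.59 (95% counting interval 1.04 to 7.29), which did not pass (adjusted p = 0.0601). The difference of the response from that in sgCtl was log2 0.74 ± 0.73 in sgXIST7 (adjusted p = 0.55) and 1.26 ± 0.75 in sgXIST9 (adjusted p = 0.37), and neither passed. Against sgCtl in hypoxia MMP9 was 5.03-fold higher in sgXIST7 (log2 2.33 ± 0.40, adjusted p = 0.000209) and 3.38-fold higher in sgXIST9 (log2 1.76 ± 0.40, adjusted p = 0.00328). The sgXIST9 call was lost without sgCtl replicate 1 (adjusted p = 0.0164), without sgXIST9 replicate 2 (adjusted p = 0.0216) and with only the groups compared in the fit (adjusted p = 0.0507). Without the replicate 3 hypoxia libraries the differences were log2 2.20 and 1.67, both called, and the rises in hypoxia 2.17 in sgXIST7 and 2.73 in sgXIST9. In normoxia, 31 counts in sgXIST7 stood against 7 in sgCtl, a CPM ratio of 3.13 (95% counting interval 1.35 to 8.41) that did not pass (adjusted p = 0.0369). Over the libraries the log2 CPM of MMP9 had a Pearson r of 0.850 with TIMP1, and the genes most like it were IL13RA1 (0.958), CHD3 (0.954) and B3GNT5 (0.953).

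SLC12A5-AS1 itself held 27, 41 and 40 counts in sgCtl, sgXIST7 and sgXIST9 in normoxia and 6, 29 and 43 in hypoxia. The libraries were stranded, but the strand setting of the counting is not given in the sources used here, so how reads of the shared bases were assigned was not tested. MMP2, gelatinase A (chr16:55478830-55506691), had 4 counts over all 18 libraries and at most 2 in any of them. MMP7, matrilysin (chr11:102520508-102530747), had 2 counts in all. At 3 counts per library, the limit of detection taken here, a gene would stand at 0.13 to 0.266 CPM, so that MMP2 and MMP7 were not detectable at this depth.

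The membrane-type enzymes differed from each other. MMP14, MT1-MMP, the main activator of pro-MMP2 (chr14:22836585-22847758), had 5 to 35 counts per library. Its values were 1.48, 1.01 and 0.689 CPM in sgCtl, 0.346, 1.05 and 0.523 in sgXIST7 and 0.491, 0.425 and 0.525 in sgXIST9 in normoxia. In hypoxia they were 1.00, 1.74 and 0.797 CPM in sgCtl, 0.478, 0.498 and 0.432 in sgXIST7 and 0.319, 0.726 and 0.378 in sgXIST9. Each KD library in hypoxia was below each sgCtl library, yet the differences of log2 -1.34 ± 0.45 in sgXIST7 and -1.32 ± 0.44 in sgXIST9 did not pass (adjusted p = 0.0241 and 0.0319). In normoxia they were -0.74 ± 0.43 and -1.12 ± 0.45 (adjusted p = 0.261 and 0.0902). Hypoxia gave a log2 difference of 0.20 ± 0.42 in sgCtl and -0.40 ± 0.47 in sgXIST7, with overlapping groups.

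MMP15, MT2-MMP (chr16:58025754-58046900, plus strand), was the best measured enzyme, and no comparison called it. Normoxia gave 7.91, 10.4 and 9.41 CPM in sgCtl, 13.2, 17.4 and 15.3 in sgXIST7 and 8.65, 8.81 and 7.76 in sgXIST9. Hypoxia gave 9.43, 13.0 and 4.16 CPM in sgCtl, 9.84, 5.07 and 4.32 in sgXIST7 and 11.2, 16.0 and 4.86 in sgXIST9. The sgXIST7 normoxia libraries were the highest of that oxygen level, and replicate 3 was again the lowest of each hypoxia group. In sgXIST7 the response to hypoxia was log2 -1.24 ± 0.39 (adjusted p = 0.012). It passed without the replicate 3 hypoxia libraries (log2 -1.03, adjusted p = 0.0015) and without sgXIST7 hypoxia replicate 1 (log2 -1.69, adjusted p = 0.00328). The difference of that response from the one in sgCtl was log2 -1.20 ± 0.55 (adjusted p = 0.176), and without the replicate 3 hypoxia libraries it was -1.32 ± 0.34 and called (adjusted p = 0.00841).

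MMP16, MT3-MMP, a gene on chromosome 8, was measured by few counts, and passed the filter through 3 libraries, all of sgCtl normoxia or sgXIST7 hypoxia. A gene kept in this way had to be higher in those groups. Normoxia libraries held 5, 7 and 6 counts in sgCtl, 0, 1 and 2 in sgXIST7 and 0, 1 and 2 in sgXIST9. Hypoxia libraries held 4, 8 and 2 counts in sgCtl, 13, 9 and 11 in sgXIST7 and 2, 3 and 1 in sgXIST9. Each KD library in normoxia was below each sgCtl library, and within sgXIST7 every hypoxia library was above every normoxia library. In normoxia, 3 counts in sgXIST7 against 18 in sgCtl gave a CPM 8.50-fold lower (95% counting interval 2.48 to 45.0; adjusted p = 0.00762). That call was lost whichever of the 6 libraries was left out (adjusted p = 0.0125 to 0.0368), with DESeq2 (adjusted p = 0.0181) and without the filter (adjusted p = 0.0117). In sgXIST9, also 3 counts, the CPM was 7.74-fold lower (95% counting interval 2.26 to 41.0) and did not pass (adjusted p = 0.0111), though it did without the replicate 3 hypoxia libraries (adjusted p = 0.00838). In sgXIST7 MMP16 went from 3 counts in normoxia to 33 in hypoxia, a CPM ratio of 12.9 (95% counting interval 4.05 to 65.8; adjusted p = 0.000249), and the call held without the replicate 3 hypoxia libraries (log2 3.30, adjusted p = 0.000886). The response in sgXIST7 less that in sgCtl was log2 4.04 ± 0.91 and did not pass (adjusted p = 0.0134), while without sgCtl hypoxia replicate 3 it was 3.85 and did (adjusted p = 0.00743). In hypoxia sgXIST7 was 6.03-fold above sgXIST9 (33 against 6 counts, 95% counting interval 2.49 to 17.6; adjusted p = 0.0074), a call that was lost whichever of those 6 libraries was left out (adjusted p = 0.0107 to 0.0397) and without the replicate 3 hypoxia libraries (adjusted p = 0.0364). Against sgCtl in hypoxia, MMP16 was at a CPM ratio of 2.05 in sgXIST7 (95% counting interval 1.07 to 4.14; adjusted p = 0.104) and 2.94-fold lower in sgXIST9 (95% counting interval 1.06 to 9.34; adjusted p = 0.118), neither called.

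PLAU, urokinase (chr10:73911101-73917500), shares 851 exon bases with C10orf55 on the opposite strand, which had 1 count in all. It held 3, 1 and 2 counts in sgCtl normoxia and none in the 6 KD libraries in normoxia. In hypoxia it held 10, 8 and 0 counts in sgCtl, 1, 1 and 0 in sgXIST7 and 1, 1 and 2 in sgXIST9. The 18 counts of sgCtl in hypoxia against 4 in sgXIST9 gave a CPM 5.67-fold lower in sgXIST9 (95% counting interval 1.87 to 23.1), and against 2 in sgXIST7 a CPM 10.4-fold lower (95% counting interval 2.48 to 92.0). These intervals cover counting error only, replicate 3 of sgCtl had no count, and PLAU entered no test of the main fit. With the same edgeR test fitted without the filter, neither difference was called (adjusted p = 0.0274 in sgXIST7 and 0.0866 in sgXIST9).

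**Figure D3:**
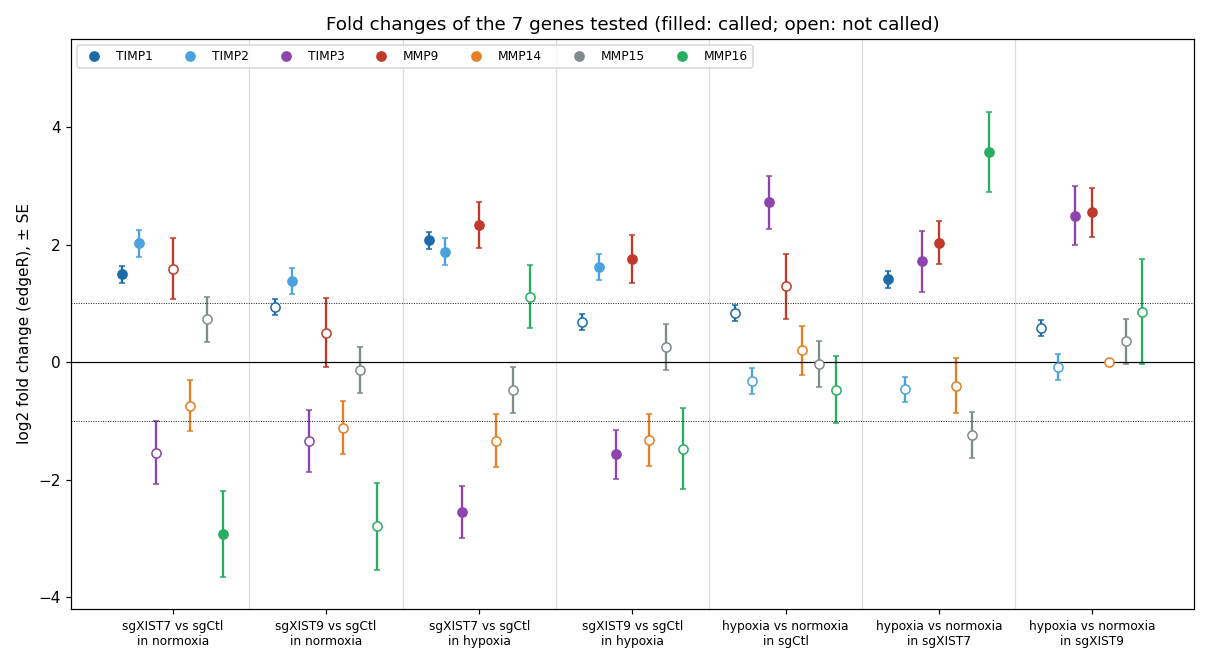
Log2 fold change with its SE for each tested member in the comparisons of guides and of oxygen; filled symbols were called and open symbols were not, and dotted lines mark a log2 fold change of 1 in either direction (no SE is drawn for MMP14 in sgXIST9, hypoxia against normoxia, whose change was 0.00). TIMP2 is filled in all 4 comparisons with sgCtl, TIMP1 lies above 1 in sgXIST7 and under 1 in sgXIST9, and TIMP3 is filled above 1 for hypoxia in each guide and below -1 for each KD guide in hypoxia.

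Counted by comparison, 3 of the 7 tested members were called in sgXIST7 against sgCtl in normoxia (TIMP1 and TIMP2 higher, MMP16 lower), where 7.76% of all genes tested were called. In sgXIST9, TIMP2 alone was called, against 7.70% of all genes. In hypoxia 4 were called in sgXIST7 (MMP9, TIMP1 and TIMP2 higher, TIMP3 lower), against 14.0% of all genes. For sgXIST9 in hypoxia 3 were called (MMP9 and TIMP2 higher, TIMP3 lower), against 9.53%, and with only the groups compared in the fit the count was 0. Hypoxia called TIMP3 alone in sgCtl, against 19.7%, 4 members in sgXIST7 (MMP9, MMP16, TIMP1 and TIMP3), against 27.3%, and MMP9 and TIMP3 in sgXIST9, against 23.2%. The response to hypoxia differed from that of sgCtl for 0 members in sgXIST7 (3 at an unadjusted p under 0.05) and in sgXIST9 (0 at an unadjusted p under 0.05), where 1.52% and 1.01% of all genes were called. DESeq2 called 0 in both, with no adjusted p given for MMP16 in sgXIST7. Between the KD clones, 0 members were called in normoxia (4 at an unadjusted p under 0.05, and 0 with DESeq2), against 3.40%, and TIMP1 and MMP16 in hypoxia, against 4.46%. The median log2 fold change of the 7 tested members was 0.73 in sgXIST7 and -0.14 in sgXIST9 in normoxia and 1.11 and 0.26 in hypoxia, beside medians over all genes of -0.01, -0.02, -0.02 and -0.01. Since MMP9 and MMP16 entered the test only through groups where they were high, these counts and medians are a description. The comparisons share their sgCtl and normoxia libraries, and with 3 libraries a group an exact two-sided permutation test of a single gene cannot go below p = 0.1, the value reached for each called difference except TIMP3 in sgXIST9 against sgCtl in hypoxia, where it was 0.2.

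A list of 58 other genes of proteolysis at the cell surface and in the matrix was read from the same fit, and 33 of them were tested. In sgXIST7 against sgCtl 6 (18.2%) were called in normoxia (4 higher, 2 lower), where 7.76% of all genes were, and 9 (27.3%) in hypoxia (5 higher, 4 lower), against 14.0%. For sgXIST9 the counts were 8 (24.2%; 5 higher, 3 lower), against 7.70% of all genes, and 9 (27.3%; 4 higher, 5 lower), against 9.53%. Hypoxia called 10 (30.3%; 9 higher) in sgCtl, against 19.7%, 10 (30.3%; 8 higher) in sgXIST7, against 27.3%, and 8 (24.2%; 7 higher) in sgXIST9, against 23.2%. Genes of the list, among them ADAM12, ADAMTS9, MMP1, MMP3 and MMP10, entered the test only through groups where they were high. Calls of such genes are part of these counts and shares, which are therefore a description. Of the 14 other MMPs 5 were tested, and of the 10 genes of the plasminogen system 7, without plasminogen itself (PLG). Described here are 7 of the 8 genes of the list with most calls, and the calls given for these 7 genes held without the replicate 3 hypoxia libraries.

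ADAMTS1, a secreted protease that cuts aggrecan and versican, was higher in both KD guides and in hypoxia. It averaged 45.3 ± 22.3 CPM (SD, n = 3) in sgCtl, 437 ± 64.8 in sgXIST7 and 211 ± 20.4 in sgXIST9 in normoxia, and 173 ± 88.8, 972 ± 89.4 and 562 ± 31.3 CPM in hypoxia. All 7 comparisons of guides with sgCtl and of oxygen called it, with log2 fold changes from 1.15 for hypoxia in sgXIST7 to 3.27 for sgXIST7 in normoxia. Without the replicate 3 hypoxia libraries the differences from sgCtl in hypoxia were log2 2.07 in sgXIST7 and 1.31 in sgXIST9, down from 2.49 and 1.70. ADAM8, a membrane protease, was called higher in hypoxia in each guide, with log2 fold changes of 1.82 in sgCtl, 2.77 in sgXIST7 and 2.49 in sgXIST9, and of 1.49, 2.48 and 2.04 without the replicate 3 hypoxia libraries. Its replicates in sgXIST7 hypoxia averaged 42.6 ± 19.8 CPM, and the difference from sgCtl in hypoxia was called (log2 1.51).

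ADAM12, a membrane protease related to ADAM8, was seen in KD cells under hypoxia. It had 33, 45 and 44 counts in sgXIST7 hypoxia and 14, 6 and 23 in sgXIST9 hypoxia, against 2 counts in all for sgCtl hypoxia and 1 count in each normoxia group. It was called higher in both KD guides in hypoxia and for hypoxia in both, but had passed the filter through 5 libraries, all of them KD cells in hypoxia, so that it had to differ. ADAMTS9, which also cuts versican and aggrecan, ran the other way, with 17, 23 and 70 counts in sgCtl normoxia and 50, 114 and 34 in sgCtl hypoxia, but 5 and 2 counts in all for sgXIST7 and sgXIST9 in normoxia and 7 and 2 in hypoxia. MMP3, stromelysin 1, an activator of other MMPs, had 23 counts in sgCtl normoxia and 67 in sgCtl hypoxia, against 3 and 3 in sgXIST7 and sgXIST9 in normoxia and 7 and 12 in hypoxia. Both ADAMTS9 and MMP3 were called lower in all 4 comparisons of a KD guide with sgCtl. Both had passed the filter through sgCtl libraries alone, 6 for ADAMTS9 and 4 for MMP3, so that they had to differ.

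In the plasminogen system, S100A10, a cell surface receptor for plasminogen, went opposite ways in the KD clones in normoxia. Against sgCtl it was called higher in sgXIST7 (log2 1.48) and lower in sgXIST9 (log2 -2.98). In hypoxia S100A10 was called lower in sgXIST9 (log2 -1.38) and was not called in sgXIST7 (log2 0.56). It averaged 12.6 ± 1.24 CPM in sgCtl, 35.1 ± 12.1 in sgXIST7 and 1.59 ± 0.105 in sgXIST9 in normoxia, and 121 ± 30.8, 179 ± 15.1 and 46.6 ± 11.1 CPM in hypoxia. The KD clones differed by log2 4.46 in normoxia and 1.94 in hypoxia (2.19 without the replicate 3 hypoxia libraries), all called, and hypoxia raised it in each guide. SERPINE2, protease nexin 1, averaged 2.67 ± 0.05, 2.15 ± 0.848 and 12.2 ± 1.63 CPM in sgCtl, sgXIST7 and sgXIST9 in normoxia and 22.4 ± 12.2, 5.86 ± 2.61 and 35.0 ± 5.78 in hypoxia. It was called higher in sgXIST9 in normoxia (log2 2.19) and lower in sgXIST7 in hypoxia (log2 -1.91, and -2.02 without the replicate 3 hypoxia libraries).

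**Figure D4:**
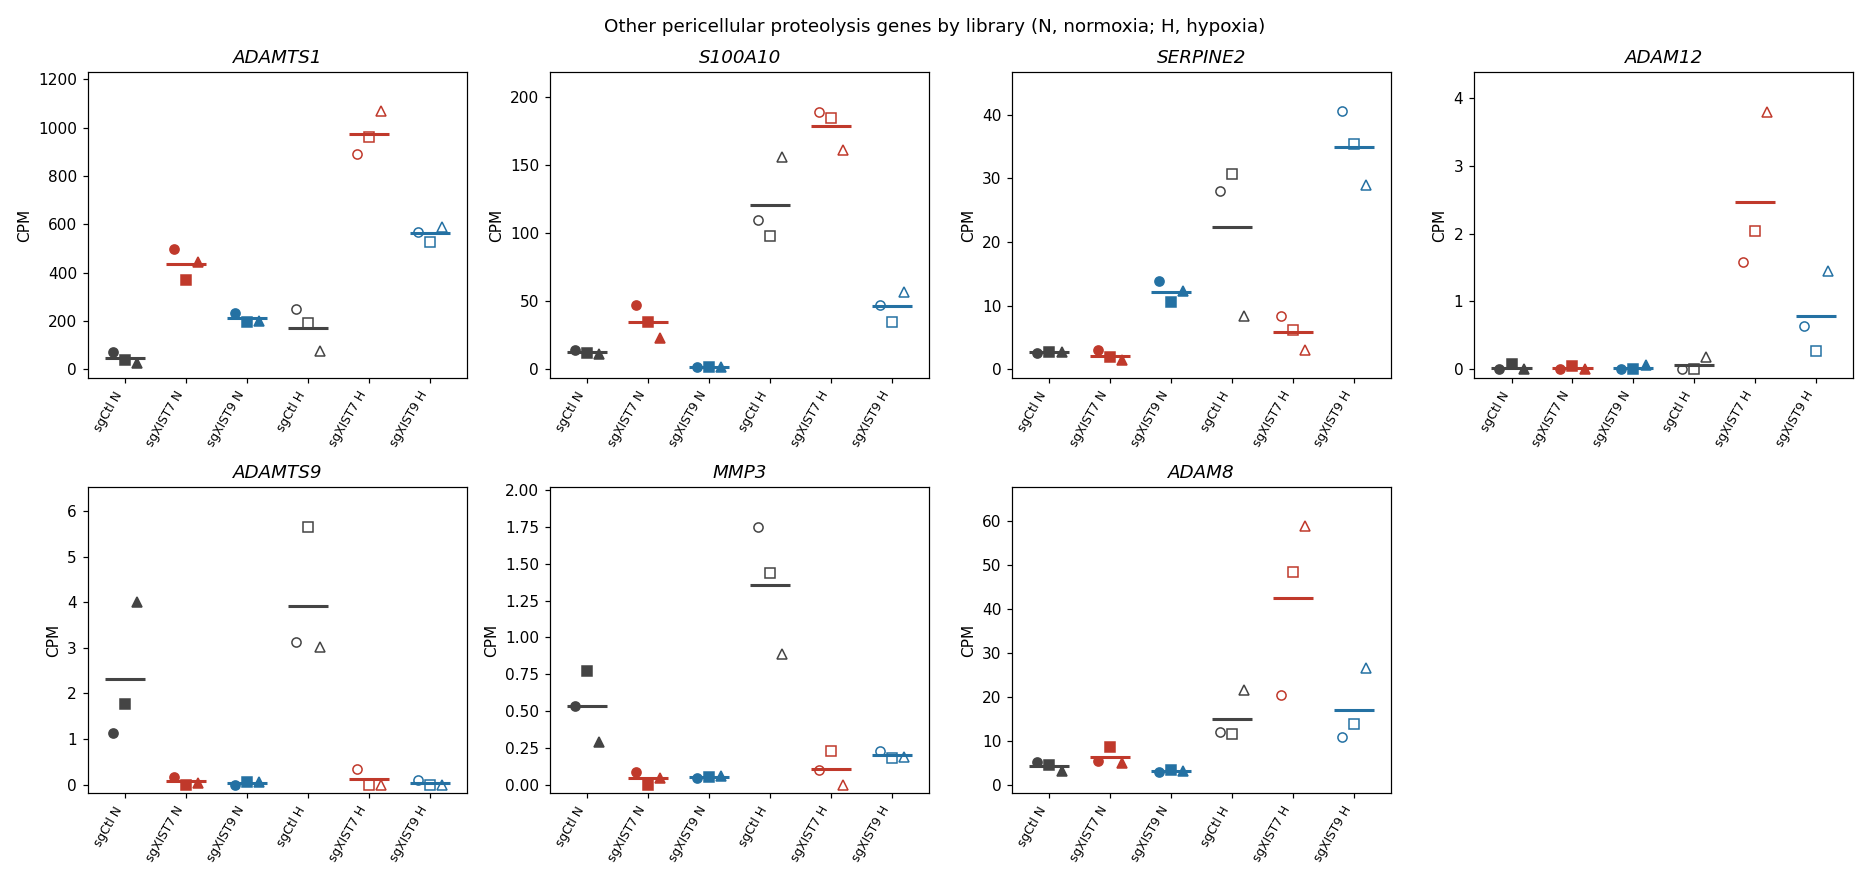
CPM (linear axis from 0) in each of the 18 libraries for 7 of the 8 other proteolysis genes with most calls, by guide and oxygen (N normoxia, H hypoxia, open symbols for hypoxia); circles, squares and triangles are replicates 1, 2 and 3 and bars are group means. ADAMTS1 climbs from a mean of 45.3 CPM in sgCtl normoxia to 972 CPM in sgXIST7 hypoxia, while ADAMTS9 and MMP3 are near 0 in the KD guides.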

How the data were processed

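RNA was rRNA-depleted and sequenced from stranded libraries; per the labels and the study's methods, the authors used Trimmomatic, HISAT2 (hg38) and featureCounts. What they deposited are raw counts per gene, not normalized. Of 28279 lines, 2 broken records without counts were left out. Members and gene lists were chosen with earlier results of these data known. Counts were fitted with edgeR 4.0.16 (R 4.3.3; robust glmQLFit and glmQLFTest, TMM, filterByExpr with minimum 10 and total 15, prior count 0.125) over all 18 libraries in 6 groups; SE is the log2 fold change over the square root of F. Calls needed adjusted p (Benjamini-Hochberg over 14938 genes) under 0.01 and a log2 fold change beyond 1. Intervals of CPM ratios are exact 95% intervals on summed counts and cover counting error only. All 10 members are named, and of the other proteolysis genes the 8 with most calls over the 7 comparisons with sgCtl or normoxia, of which 1 is not reported here. Likeness is the Pearson r of log2 CPM. The scripts were tested on simulated counts. Depth was 11794375 to 24906936 counts, and no replicates were duplicates. Alternatives were DESeq2 1.42.0, other scalings and filters, fits of the groups compared only, a replicate block, each library left out and, chosen after seeing the data, the hypoxia replicate 3 libraries left out.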

Additional observations from a re-analysis of the deposited data

Results flagged for a closer look

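The response of MMP16 to hypoxia was 4.04 higher in sgXIST7 than in sgCtl on the log2 scale (SE 0.91, adjusted p = 0.0134), looked at because the difference between guides was tested directly and its adjusted p was under 0.05. The same test of the KD clones against each other singled out TIMP1 in normoxia (sgXIST7 over sgXIST9, log2 0.56, SE 0.14, adjusted p = 0.0142) and in hypoxia (log2 1.39, SE 0.14, adjusted p = 2.57e-06), and MMP16 in hypoxia (log2 2.58, SE 0.61, adjusted p = 0.0074). The MMP16 response and the TIMP1 difference in normoxia were not called, since their adjusted p was not under 0.01. The MMP16 values rest on 33 counts in sgXIST7 hypoxia against 3 to 18 in the other groups. MMP16 had passed the filter only through libraries of sgCtl normoxia and sgXIST7 hypoxia, which favours a positive difference in response. Its call between the KD clones was lost whichever of those 6 libraries was left out. The TIMP1 groups did not overlap. Their causes were not tested.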

How the results depend on the processing

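Log2 fold changes were recomputed for members with an unadjusted p under 0.05 in the main fit, in each alternative that tested the gene. None of these reversed in sign, and other fold changes were not counted in this way. Of 638 recomputed log2 fold changes of members, 587 kept their side of the threshold, 32 lost it and 19 gained it, and of 162 recomputed counts 17 moved by over 1.5 times. At an adjusted p under 0.05 the members called were 5 in sgXIST7 and 2 in sgXIST9 against sgCtl in normoxia, and 1 (MMP16) for the difference in response of sgXIST7, beside 9.60%, 9.67% and 4.73% of all genes tested. With only the groups compared in the fit, members called were 2 in sgXIST9 in normoxia, 0 in sgXIST9 in hypoxia and 1 between the KD clones in hypoxia (9.34%, 4.50% and 2.25% of all genes), and other proteolysis genes 5 in sgXIST9 in hypoxia and 6 for hypoxia in sgCtl (16.6% of all genes). At a mean CPM of at least 1, which leaves fewer members tested, 2 members were called for hypoxia in sgXIST7, 1 for hypoxia in sgXIST9 and 1 between the KD clones in hypoxia (27.2%, 22.8% and 4.30% of all genes), and 5 other proteolysis genes in sgXIST9 in hypoxia (9.04%). DESeq2 and the fit without a filter each called 1 member (TIMP1) between the KD clones in hypoxia (5.40% and 2.91% of all genes). Without the hypoxia replicate 3 libraries, members called were 3 in sgXIST9 in normoxia, 1 (MMP15) for the difference in response of sgXIST7 and 1 between the KD clones in hypoxia (9.24%, 8.43% and 6.35% of all genes). Leaving out single libraries gave 1 to 2 members called in sgXIST9 in normoxia, 1 to 3 in sgXIST9 in hypoxia, 0 to 1 for the difference in response of sgXIST7 and 1 between the KD clones in hypoxia, beside 6.37% to 6.74%, 7.61% to 13.1%, 0.554% to 7.83% and 2.86% to 6.36% of all genes. The cause of these shifts was not tested.

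Same-numbered libraries were not shown to be paired by the design. Their deviations from group means correlated from -0.111 to 0.593 over 45 pairs (median 0.073), 18 of them above 0.1. Over 90 pairs of different number the median was -0.034, with 9 above 0.1. The hypoxia replicate 3 libraries correlated with each other at 0.416 to 0.593. Of 18 libraries, 16 correlated best with a library of their own number, a hint from the data and not from the design. The main fit had no block for the number. With the replicate number as a block, 5 members were called for hypoxia in sgXIST7 instead of 4, MMP15 being added (log2 -1.29, adjusted p = 0.0039; 28.0% of all genes), and the other 10 counts of members were unchanged. Depth limits MMP2, MMP7, PLAU, MMP16 and, in normoxia, MMP9 and TIMP3, whose counts are few.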
